A study of Drosophila melanogaster with 12 samples.

Results

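The radiation response of wild-type fly embryos was described from 2 RNA libraries, 1 of irradiated and 1 of mock-treated Drosophila melanogaster embryos of the yw strain, out of 12 samples in the series. Both groups were handled at an age of 3 to 4 h, the irradiated group with 40 Gy of ionizing radiation and the mock group with none. After 1.5 h of recovery, at a labelled age of 4.5 to 5.5 h, the embryos were stripped of their eggshell with 50% bleach and their polyA RNA was sequenced as stranded paired-end libraries. The same treatments of a p53 mutant strain, p535A-1-4, gave 2 further libraries that are set beside the wild-type pair here. How many embryos went into a library is not stated in the labels used here. Each group had 1 library, so no difference has a replicate check and none was tested. Of 16510 genes listed in the embryo table, 10654 reached 1 FPKM (fragments per kilobase of transcript, scaled to the fragments of the library) in at least 1 of the 4 libraries, and these are the genes counted. The difference of a gene is log2(FPKM + 1) of the irradiated library minus that of the mock library. A gene is called higher or lower where that difference is 2-fold or more. The added 1 FPKM understates the change of weakly expressed genes.

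Ionizing radiation breaks both strands of DNA, and damage kinases pass the signal to p53, a transcription factor. In flies p53 is known for switching on reaper-family genes, whose products bind and inactivate the caspase inhibitor Diap1, so that caspases can carry out apoptosis. At this age the embryo has formed cells and is in gastrulation and germ band extension, when its cells are dividing and are known to die readily after irradiation.

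Depth was estimated from the spacing of low FPKM values and came to 20.8 M fragments in irradiated and 19.1 M in mock wild-type embryos, against 22.5 M and 21.4 M in irradiated and mock mutant embryos. The counting intervals below are exact 95% intervals of a ratio, which take in counting error alone. Transcripts of the labelled stage were present in both wild-type libraries. The segment polarity gene en (engrailed) stood at 64.6 FPKM in irradiated and 71.0 FPKM in mock embryos, and the mesoderm gene sna (snail) at 144 and 138 FPKM. Transcripts known from older stages were present as well. Mhc, the myosin heavy chain of differentiated muscle, stood at 119 FPKM in irradiated and 122 FPKM in mock embryos, and Cpr51A, which encodes a cuticle protein, at 78.6 and 164 FPKM. A yolk protein gene of adult females, Yp3, stood at 2.14 and 1.91 FPKM. The libraries also stood apart from one another in transcripts of the gut and the larval salivary gland, whose values are given with those genes.

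The p53 transcript, from 3R:23049657-23054082 on the dm6 build, was at 54.5 FPKM in irradiated and 25.9 FPKM in mock wild-type embryos. In mutant embryos it was at 0.34 FPKM after radiation and 0.70 FPKM without it, which fits the strain labels. The wild-type difference was 1.04, with a ratio of 2.10 and a counting interval of 1.94 to 2.28.

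Most transcripts differed little between the irradiated and mock libraries. In RNA of whole embryos, fewer cells of a type and less RNA per cell cannot be told apart. The median difference over the genes counted was 0.02, with 45.8% of them below 0 (41.3% in mutant embryos), and genes other than small RNA genes had an interquartile range of -0.12 to 0.16. Higher in irradiated embryos were 141 genes (1.32% of those counted), and lower were 95 genes (0.892%). Genes of small nucleolar, small nuclear, transfer and micro RNAs, which polyA libraries capture poorly, made up 27 of the higher and 41 of the lower genes although only 133 were counted. Without them, 114 of 10521 genes were higher (1.08%) and 54 were lower (0.513%). In mutant embryos 74 of the same genes were higher (0.703%) and 57 were lower (0.542%).

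The higher genes were split by their level in mock embryos. Of 7549 genes at 5 FPKM or more in mock wild type, 28 were higher (0.371%) and 26 were lower (0.344%). In mutant embryos 3 of these genes were called higher (0.0397%) and 26 lower (0.344%). None of those 28 was called higher in mutant embryos, where their median difference was 0.13. Of 67 higher genes under 1 FPKM in mock wild type, 25 were also higher in mutant embryos, with a median mutant difference of 0.68. At 34 of the 67, the mock library was listed at 0, and 14 of these 34 were higher in mutant embryos. Beside them, 23 of all 85 genes at 0 FPKM in mock wild type were higher in mutant embryos, small RNA genes left out. Of the other 33, 11 were higher in mutant embryos, beside 29 of all 647 genes above 0 and up to 1 FPKM. The well expressed group holds the cell death, repair and p53-associated genes described first below, and the weakly expressed group holds most of the digestive genes.

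**Figure D1:**
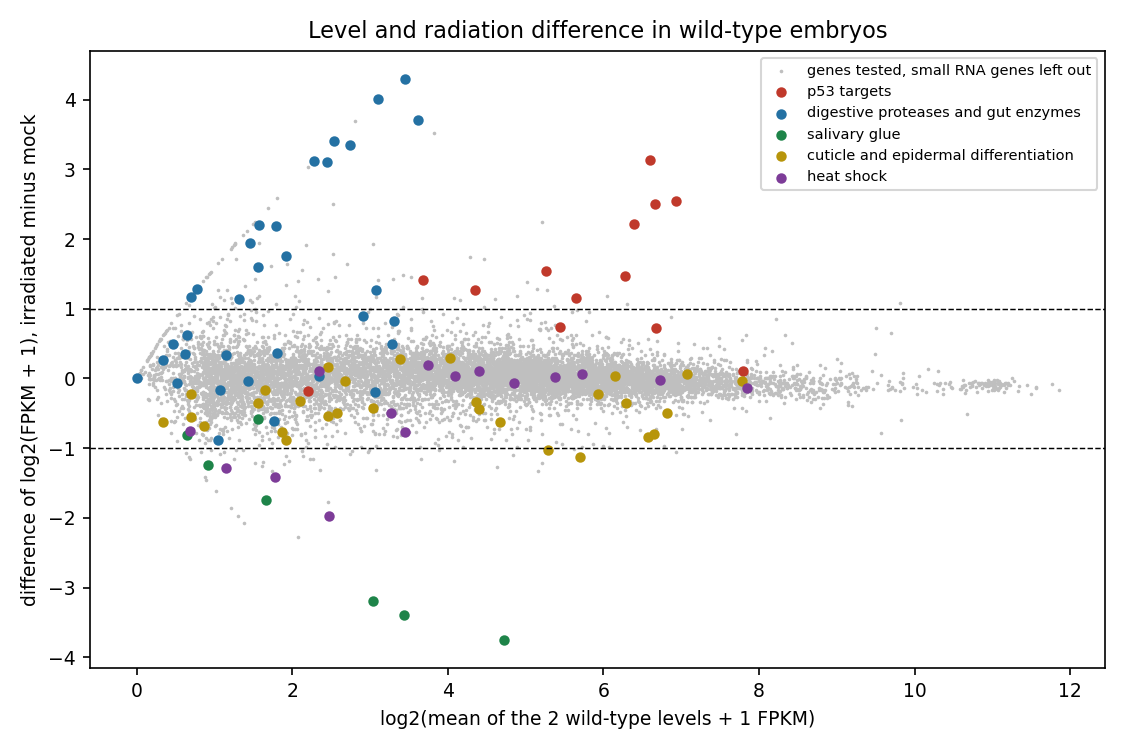
Difference of log2(FPKM + 1) between irradiated and mock wild-type embryos (vertical) against the log2 of their mean level plus 1 FPKM (horizontal), 1 point per gene with small RNA genes left out, with 5 gene lists in colour and dashed lines at 2-fold. The p53 targets called higher lie at medium and high levels (skl at 3.14), the digestive genes lie along the upper edge at low levels (Jon99Fi at 4.30), and the glue genes lie lowest (Sgs7 at -3.75).

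Of the 4 genes that open the way to apoptosis 3 were called higher, beside 1.32% of all genes counted. The transcript of rpr (reaper) was at 208 FPKM in irradiated and 35.0 FPKM in mock wild-type embryos, against 24.5 and 30.0 FPKM in irradiated and mock mutant embryos. Its wild-type ratio was 5.95, with a counting interval of 5.42 to 6.55. The transcript of skl (sickle), which encodes another Diap1-binding protein, was at 174 FPKM in irradiated and 18.8 FPKM in mock wild type, against 22.1 and 24.1 FPKM in the mutant pair. With a ratio of 9.25 and an interval of 8.38 to 10.2, skl had the largest difference (3.14) among the 28 well expressed genes. W, the symbol in the table for hid (head involution defective), was at 113 FPKM in irradiated and 40.2 FPKM in mock wild type, against 32.5 and 38.1 FPKM in the mutant pair. For each of these 3 genes the irradiated wild-type library stood well above the other 3, which lay close together. The remaining member, grim, lies in the same part of 3L but stood at 3.31 FPKM in irradiated and 3.89 FPKM in mock wild type, a difference of -0.18. The 4 genes summed to 498 FPKM in irradiated and 97.9 FPKM in mock wild-type embryos, and to 83.6 and 98 FPKM in the mutant pair.

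The machinery on which these proteins act did not pass 2-fold. Of 16 caspases, adaptors, Bcl-2 family members and caspase inhibitors, none was higher and none lower, beside 1.32% and 0.892% of all genes counted. Their median was 0.11, beside 0.02 over the genes counted. Ark, the adaptor that activates the initiator caspase, had the largest difference, 0.68, at 20.9 FPKM in irradiated and 12.7 FPKM in mock embryos. The initiator caspase gene Nc (Dronc) stood at 13.6 and 10.0 FPKM in irradiated and mock embryos, and the effector caspase gene Dcp-1 at 131 and 150 FPKM. The gene of Diap1 itself, th (thread), stood at 333 FPKM in irradiated and 313 FPKM in mock embryos, a difference of 0.09. The summed level of the 16 genes was 899.6 FPKM after radiation and 891 FPKM without it.

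Genes known as p53 targets were taken as a list of 13, all of which were counted. Higher were 9 of them, beside 1.32% of all genes counted, and their median was 1.41. In mutant embryos no member was higher or lower, beside 1.02% and 0.948% of the genes counted, and the median was 0.12, beside 0.04 over those genes. Xrp1 encodes a leucine zipper transcription factor and was at 171 FPKM in irradiated and 29.3 FPKM in mock wild type, against 36.0 and 28.2 FPKM in the mutant pair. Its ratio was 5.86, with an interval of 5.59 to 6.15. The gene of its dimer partner Irbp18, listed as CG6272, was at 90.9 FPKM in irradiated and 39.7 FPKM in mock wild type, a difference of 1.18, against 38.8 and 32.9 FPKM in the mutant pair. Both genes of the pair were thus higher in the irradiated wild-type library than in each of the others. Corp (companion of reaper), whose product is known to restrain p53, was at 137 FPKM in irradiated and 28.8 FPKM in mock wild type, against 21.7 and 25.2 FPKM in the mutant pair. Its ratio was 4.75, with an interval of 4.35 to 5.21. The 4 targets that were not called were mre11 (0.74), RnrL (0.72), WRNexo (0.11) and grim.

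**Figure D2:**
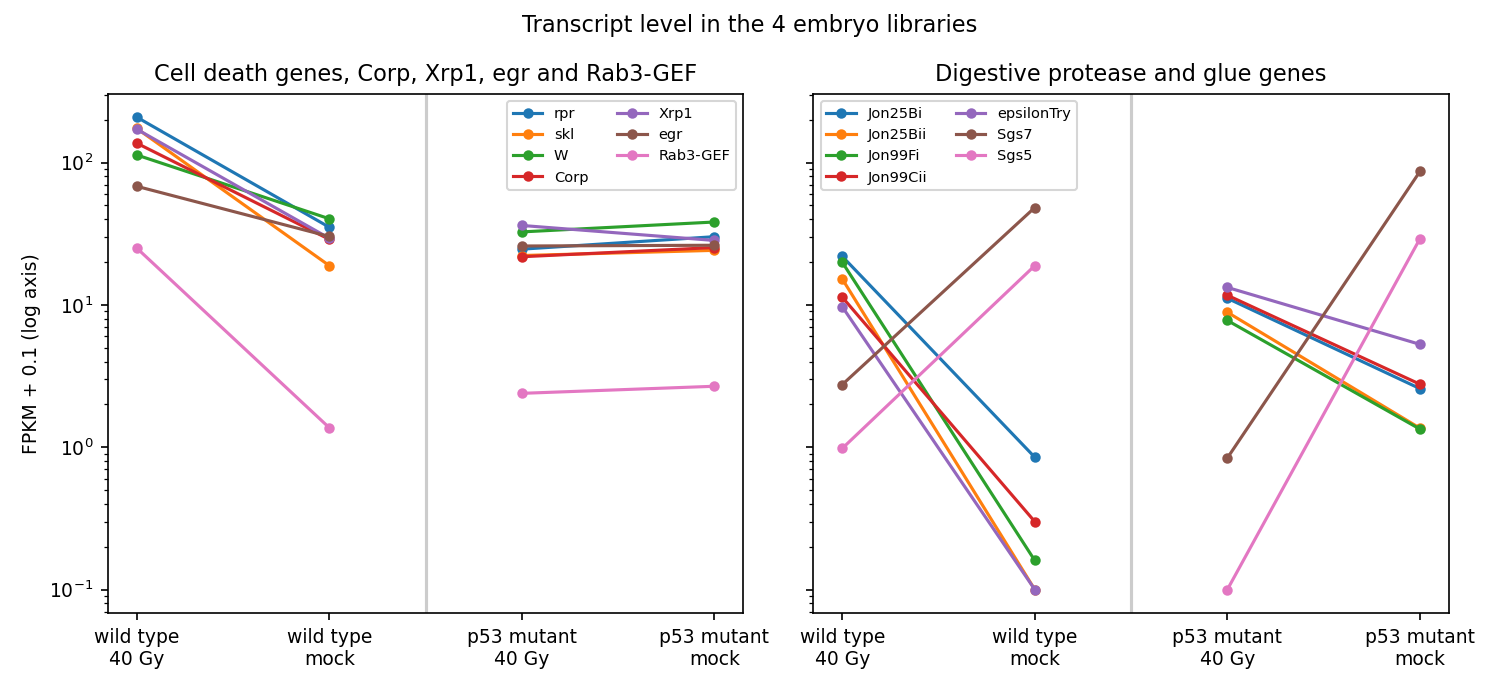
Transcript level (FPKM + 0.1, log axis) in irradiated and mock wild-type embryos and in irradiated and mock p53 mutant embryos, 1 point per library and 1 colour per gene, with lines joining the 2 libraries of a strain. On the left, irradiated wild type stands above the other 3 libraries for every gene drawn (rpr at 208 FPKM). On the right, the digestive genes are higher and the glue genes Sgs7 and Sgs5 lower in the irradiated library of both strains.

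End joining rejoins broken DNA ends directly. Of its 7 listed genes 3 were higher, beside 1.32% of all genes counted, with a median of 0.91 and all 7 above 0. Irbp, which encodes the Ku70 subunit that caps a broken end, was at 56.2 FPKM in irradiated and 18.7 FPKM in mock wild type, against 18.8 and 16.2 FPKM in the mutant pair. Ku80, the other subunit, was at 27.9 and 11.03 FPKM in irradiated and mock wild type, against 12.8 and 10.6 FPKM in the mutant pair. The ligase gene lig3 was at 16.6 FPKM in irradiated and 6.90 FPKM in mock embryos. Both Ku genes thus stood highest in the irradiated wild-type library. Lig4, the ligase that seals the ends held by Ku, fell just short of the 2-fold line with 12.4 FPKM in irradiated and 6.13 FPKM in mock embryos (0.91). CG12728, another listed gene, differed by 0.60. The alternative end joining polymerase mus308 stood at 25.4 and 22.4 FPKM in irradiated and mock embryos (0.17).

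Homologous recombination, which copies an intact strand, showed no called gene among 26, beside 1.32% higher and 0.892% lower over all genes counted. The median of this list was 0.13. Its largest differences were those of rad50 (40.8 FPKM in irradiated and 22.0 FPKM in mock embryos, 0.86) and mre11 (53.3 and 31.5 FPKM, 0.74), which encode 2 subunits of the complex that trims broken ends. The third subunit, nbs, differed by 0.21. Excision and mismatch repair genes showed none called among 19, beside the same shares of all genes counted. Their median was 0.11, with a largest difference of 0.42 for mus210, the fly XPC damage sensor. Of 12 genes of nucleotide supply and translesion synthesis only mus205 was called, as higher, beside 1.32% of all genes counted. It encodes the catalytic subunit of the damage-tolerant polymerase zeta. Its levels were 17.7 FPKM in irradiated and 6.05 FPKM in mock wild type, against 6.03 and 5.45 FPKM in the mutant pair. RnrL, the large subunit of ribonucleotide reductase, was at 126 FPKM in irradiated and 76.1 FPKM in mock embryos (0.72), while the small subunit RnrS was at 590.4 and 644 FPKM (-0.12).

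Checkpoint and cell cycle transcripts lay near 0. Among 14 checkpoint genes p53 alone was called, as higher, beside 1.32% of all genes counted. The kinase genes lok (Chk2), tefu (ATM) and mei-41 (ATR) differed by 0.33, 0.24 and 0.02. No member of 39 cell cycle and replication genes was called, beside 1.32% higher and 0.892% lower over all genes counted. Their median was 0.05. The Cdc25 phosphatase genes, which drive entry into mitosis, were among the larger differences there. The maternal phosphatase gene twe was at 13.2 FPKM in irradiated and 7.78 FPKM in mock embryos (0.69), and stg (string), the zygotic one, at 327 and 247 FPKM (0.40). In mutant embryos stg was also higher after radiation, at 274 FPKM against 194 FPKM in mock embryos (0.50). The cyclin genes CycA, CycB and CycE differed by -0.10, -0.01 and -0.08 in wild type.

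In the tumour necrosis factor and JNK pathway the ligand stood apart. The gene of the ligand, egr (eiger), was at 68.0 FPKM in irradiated and 30.1 FPKM in mock wild type, against 25.8 and 26.1 FPKM in the mutant pair, a wild-type ratio of 2.26 with an interval of 2.11 to 2.42. It was the only one of 17 listed genes called, beside 1.32% of all genes counted that were higher, and the list median was 0.12. Traf4, an adaptor below the receptor, was next at 391 FPKM in irradiated and 253 FPKM in mock embryos (0.62). The receptor gene wgn (wengen) differed by -0.11, the kinase gene bsk (JNK) by 0.16 and puc (puckered), a phosphatase gene that JNK activity is known to induce, by 0.12. The 2 genes of the list with the highest differences were those of the ligand and an adaptor, and the usual transcriptional readout lay close to 0.

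A pair of growth inhibitors came close to the threshold. The genes scyl (scylla) and chrb (charybdis) encode REDD1-type proteins that lower TOR activity. At 382 FPKM in irradiated and 209.6 FPKM in mock wild type, against 140.2 and 142 FPKM in the mutant pair, scyl differed by 0.86. At 151 FPKM in irradiated and 81.5 FPKM in mock wild type, against 62.0 and 65.5 FPKM in the mutant pair, chrb differed by 0.88. No other member of the 20 stress and growth control genes was 1.5-fold or more higher, beside 3.15% of all genes counted, and their median was 0.11. Thor, the 4E-BP translation inhibitor, differed by 0.33, and Sesn, the fly sestrin, by 0.10.

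Outside these pathways, and with small RNA genes left aside, the largest difference of a gene above 1 FPKM in both wild-type libraries was that of Rab3-GEF, which activates Rab3, a GTPase of transmitter release. It stood at 24.98 FPKM in irradiated and 1.27 FPKM in mock wild type, against 2.29 and 2.58 FPKM in the mutant pair. The ratio was 19.7, with an interval of 17.0 to 22.8. The rest of the synaptic release list did not follow: of 14 genes it alone was called, beside 1.32% of all genes counted that were higher. The list median was 0.09, and Rab3 itself stood at 5.62 and 5.55 FPKM in irradiated and mock wild type. CG1504, on the X chromosome, stood at 12.02 FPKM in irradiated and 2.42 FPKM in mock wild type, against 1.81 and 1.90 FPKM in the mutant pair. CG12194, on 2L, stood at 60.0 and 11.9 FPKM in irradiated and mock wild type, against 14.6 and 13.3 FPKM in the mutant pair. CG34266 was listed at 0 in mock wild type and at 12.04 FPKM in irradiated wild type, with 0.43 and 0.41 FPKM in the mutant pair. In each of these 4 genes the irradiated wild-type library was the high one and the other 3 were low. CG34266 was counted only because that library reached 1 FPKM, and CG1504 and CG12194 were chosen after their values were seen. The shared pattern is therefore partly set by the filter and the choice.

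Several other well expressed genes were called higher. spo (spook), a Halloween gene of ecdysteroid synthesis, was at 53.6 FPKM in irradiated and 21.6 FPKM in mock wild type, against 18.8 and 18.5 FPKM in the mutant pair. Rtnl1, a reticulon of the endoplasmic reticulum, was the most abundant of the 28, at 1219.8 FPKM in irradiated and 578 FPKM in mock wild type, against 634 and 605 FPKM in the mutant pair. IscU, listed as CG9836, encodes the scaffold protein of iron-sulphur cluster assembly and was at 106 and 49.7 FPKM in irradiated and mock wild type. The ABC transporter gene CG1718 was at 23.5 and 10.3 FPKM, and the chimaeric gene Qtzl at 49.2 and 19.5 FPKM. Qtzl shares sequence with its parent genes, so its fragments could be divided with them. Some called genes differed more between the strains than with radiation. CG15236 was at 29.1 FPKM in irradiated and 7.99 FPKM in mock wild type but at 0.61 and 0.84 FPKM in the mutant pair, and its neighbour CG9445 was at 5.50 and 1.21 FPKM against 0.11 and 0.17 FPKM. Cyp4p1, a cytochrome P450 gene, was at 32.5 and 14.2 FPKM in irradiated and mock wild type and at 2.33 and 1.72 FPKM in the mutant pair. Strain background and the p53 mutation cannot be told apart for these genes.

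**Figure D3:**
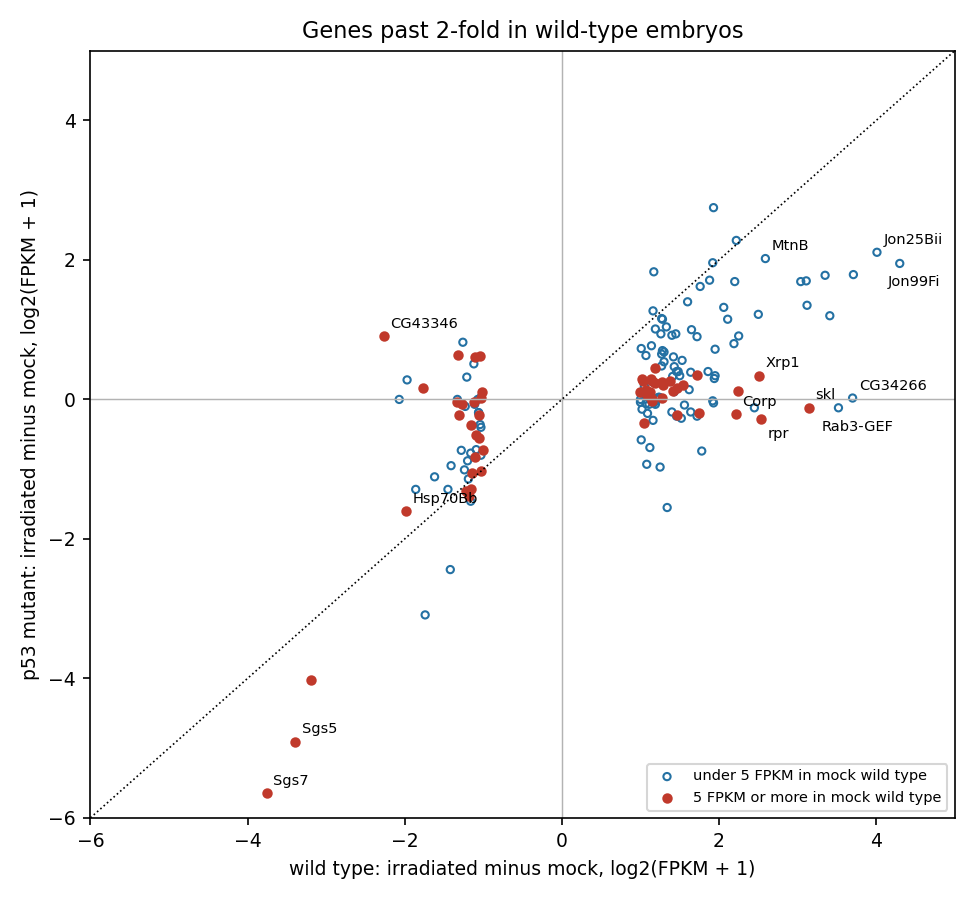
Genes past 2-fold in wild-type embryos, small RNA genes left out, with the wild-type difference on the horizontal and the p53 mutant difference on the vertical axis (both irradiated minus mock, log2(FPKM + 1)); the dotted line marks equal differences. Genes at 5 FPKM or more in mock wild type (filled) that were higher lie near 0 in the mutant (median 0.13), whereas digestive and metallothionein genes such as Jon25Bii (4.01 in wild type, 2.11 in the mutant) and the glue genes lie away from 0 in both strains.

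Binding of p53 was measured in the series by chromatin immunoprecipitation from embryos for which the labels give no radiation treatment, and the authors called 135 peaks of wild-type over p53 mutant chromatin, with folds of 1.71 to 7.35. Of 187 counted genes, small RNA genes left out, whose annotated span lay within 5 kb of a peak, 10 were higher (5.35%) and 2 were lower. Of the 10330 genes farther away, 104 were higher (1.01%) and 52 were lower (0.503%). At 1.5-fold the shares higher were 8.02% near a peak and 2.85% farther away, beside 2.94% of all these genes. In mutant embryos none of the 187 genes was higher or lower at 2-fold, beside 0.703% and 0.542% of all these genes, and 3 were higher at 1.5-fold (1.6%). Most genes near a peak thus showed no called difference, and most genes called higher had no peak nearby. The peak with the highest fold, 7.35, had its summit in an intron of Xrp1, which spans 3R:18914968-18926989. The gene of egr, 2R:10078366-10084210, held a summit 45 bases after its start with a fold of 5.04, and Rtnl1, 2L:4992808-5009720, held 1 in an intron with a fold of 4.62. For rpr, 3L:18397535-18398435, the summit lay 4870 bases before the start, with a fold of 4.59. Nearer to their starts lay the summits of Rab3-GEF (252 bases before, fold 3.59), Corp (282 bases before, fold 3.03) and W (128 bases before, fold 2.43). A summit with a fold of 3.44 lay inside p53, 776 bases after its start. For this peak, binding and a loss of p53 DNA in the mutant chromatin used as background cannot be told apart. This peak also placed Gr94a, a taste receptor gene inside the p53 span, among the 10, and Gr94a stood at 4.80 FPKM in irradiated and 1.69 FPKM in mock wild type, against 0 and 0.05 FPKM in the mutant pair. It is not stated in the labels how fragments were divided between such overlapping genes. The tenth gene was the antisense RNA gene CR44381, at 8.91 and 2.17 FPKM in irradiated and mock wild type but at 8.41 and 9.68 FPKM in the mutant pair.

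Several genes next to peaks stayed below the threshold with wild-type differences above 0 and mutant differences near 0. Besides chrb, which held a summit in an intron with a fold of 3.66, Atg17, an autophagy initiation gene, was at 43.9 FPKM in irradiated and 26.5 FPKM in mock wild type (0.71), against 22.4 and 22.7 FPKM in the mutant pair (-0.02). be, near another peak, was at 68.8 and 38.6 FPKM in irradiated and mock wild type (0.82), against 30.9 and 32.3 FPKM in the mutant pair (-0.06). Other genes next to peaks were above 0 in both strains. CG9065 differed by 0.94 in wild type and 0.54 in the mutant, and ana2 by 0.51 and 0.54. Among the members of the p53 target list, skl lay 35044 bases from the nearest peak, the one upstream of rpr, and Irbp, Ku80 and mus205 also had no peak within 5 kb. The lower genes near a peak, CG16713 and CG16704, shared 1 peak and neighbour each other. CG16713 was at 3.46 FPKM in irradiated and 8.16 FPKM in mock wild type but at 37.6 and 24.2 FPKM in the mutant pair.

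**Figure D4:**
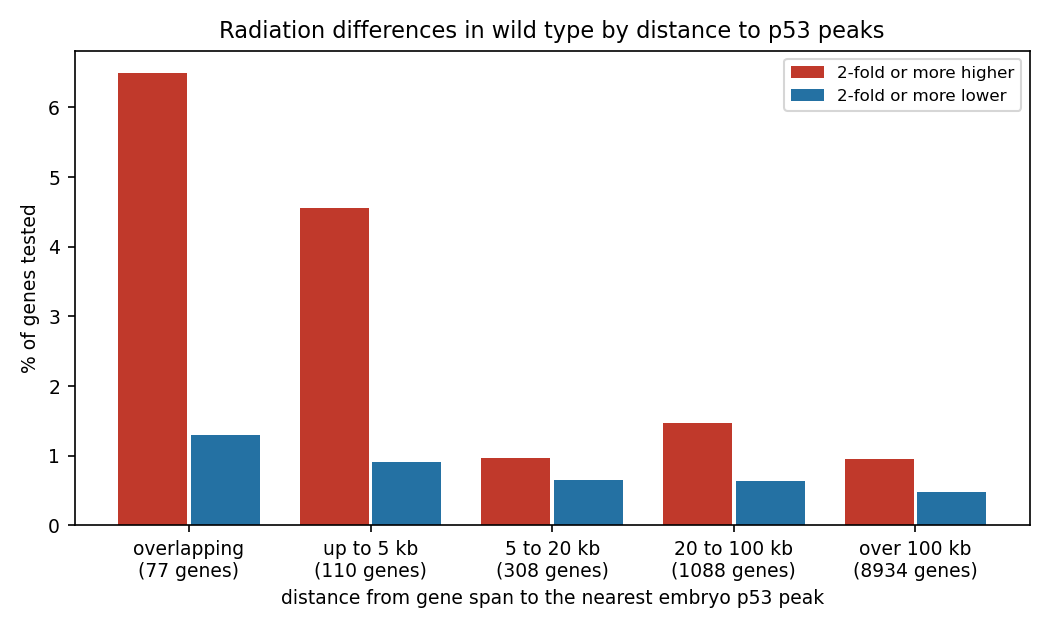
Share of counted genes, small RNA genes left out, that were 2-fold or more higher (red) or lower (blue) in irradiated than in mock wild-type embryos, by the distance of the annotated gene span to the nearest embryo p53 peak. Higher genes made up 6.49% of genes overlapping a peak and 4.55% of genes up to 5 kb away, against 0.951% of genes over 100 kb away.

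Many digestive genes were higher in irradiated embryos of both strains. The list holds serine proteases, lysozymes and carbohydrate enzymes known from the feeding larva and the adult gut. Of 33 members counted, 16 were higher in wild type, beside 1.32% of all genes counted, with a median of 0.90. In mutant embryos 16 were higher, beside 1.02%, with a median of 0.94, beside 0.04 over all genes counted. No share matched to the level in mock mutant embryos was counted. The level in mock wild type bears on these counts, since a gene under 1 FPKM there cannot be called lower and was counted only where another library reached 1 FPKM. Of 22 members under 1 FPKM in mock wild type 15 were higher, beside 67 of all 718 such genes (9.33%), small RNA genes left out. Of the 11 members at 1 FPKM or more in mock wild type 1 was higher. Jon25Bi was at 21.8 FPKM in irradiated and 0.75 FPKM in mock wild type, against 11.02 and 2.48 FPKM in the mutant pair. Jon99Fi was at 19.9 and 0.06 FPKM in irradiated and mock wild type, against 7.67 and 1.24 FPKM in the mutant pair. The trypsin gene epsilonTry was at 9.61 FPKM in irradiated wild type and listed at 0 in mock wild type, against 13.2 and 5.18 FPKM in the mutant pair. In these 3 genes the mock wild-type library was the lowest of the 4. All 13 counted genes of the Jonah (Jon) protease family had wild-type differences above 0 and 10 were higher. Other members did not share this direction: the alpha-glucosidase gene Mal-A3 was at 6.81 and 7.94 FPKM in irradiated and mock wild type (-0.19). Below 0 by 1.5-fold or more were Mal-A2, at 1.70 and 3.11 FPKM (-0.61), and the trypsin gene etaTry, at 0.46 and 1.68 FPKM (-0.88). In irradiated wild type 8 of the 33 genes were under 1 FPKM. Summed over the list, the level was 184 FPKM in irradiated and 48.8 FPKM in mock wild type, and 347 and 172 FPKM in irradiated and mock mutant embryos. The unirradiated mutant library thus carried nearly as much as the irradiated wild-type library. The part of material from older animals in these values was not tested.

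Metallothionein genes encode metal-binding proteins of the gut and other tissues. In wild type 3 of 4 were called higher, beside 1.32% of all genes counted, and in the mutant 2 of 4, beside 1.02%. Each of the 3 was under 1 FPKM in mock wild type and so could not be called lower there. Of all genes under 1 FPKM in mock wild type, small RNA genes left out, 9.33% were higher. The 2 called in the mutant were likewise under 1 FPKM in mock mutant embryos. MtnB and MtnD were listed at 0 in mock wild type and at 5.02 and 2.78 FPKM in irradiated wild type, and in the mutant pair MtnB was at 5.54 and 0.61 FPKM and MtnD at 4.84 and 0.50 FPKM. MtnE was at 4.78 FPKM in irradiated and 0.85 FPKM in mock wild type, against 2.74 and 1.85 FPKM in the mutant pair, where it was not called (0.39). The abundant member MtnA stood at 211 and 234 FPKM in irradiated and mock wild type (-0.15). Of 14 immune effector genes none was called in wild type, beside 1.32% higher and 0.892% lower over all genes counted. Their median was -0.01, and 6 were under 1 FPKM in mock and 8 in irradiated wild type. In mutant embryos 2 of them, IM3 and PGRP-SC2, were higher, beside 1.02% of all genes counted. The mutant median was 0.20, beside 0.04 over all genes counted. The summed level was 279 FPKM in irradiated and 205 FPKM in mock mutant embryos.

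With small RNA genes left aside, salivary glue genes gave the largest differences in the other direction. These genes are known from the late larval salivary gland, where they make the glue that fixes the pupal case. Of 7 counted, 5 were lower in wild type, beside 0.892% of all genes counted, with a median of -1.74. All 7 were lower in the mutant, beside 0.948%, with a median of -3.09. Sgs7 was at 2.65 FPKM in irradiated and 48.2 FPKM in mock wild type, against 0.74 and 86.5 FPKM in the mutant pair. Sgs5 was at 0.88 and 18.8 FPKM in irradiated and mock wild type, and listed at 0 in irradiated mutant embryos against 29.1 FPKM in mock mutant embryos. In irradiated wild type 5 and in mock wild type 0 of the 7 were under 1 FPKM. A gene under 1 FPKM in the irradiated library cannot be called higher and was counted only where another library reached 1 FPKM. The shares over all genes counted are therefore not matched to these genes in level. The list summed to 6.2 FPKM in irradiated and 89.7 FPKM in mock wild type, and to 1.4 and 153 FPKM in the mutant pair, so the mock library was the high one in both strains. The part of larval material in the mock libraries was not tested. Lsp1gamma, a larval serum protein gene, stood at 1.86 and 3.28 FPKM in irradiated and mock wild type and at 1.10 and 3.02 FPKM in the mutant pair.

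Among heat shock genes none was called higher, beside 1.32% of all genes counted. Of 15 counted, 3 were lower, all Hsp70 copies, beside 0.892% of all genes counted, with a list median of -0.06. Hsp70Bb was at 1.25 FPKM in irradiated and 7.85 FPKM in mock wild type, against 1.85 and 7.65 FPKM in the mutant pair. Hsp70Ba was at 0.88 and 4.01 FPKM in irradiated and mock wild type. The Hsp70 copies are nearly identical, so their fragments could be divided among them, and the 4 counted copies summed to 2.6 FPKM in irradiated and 15 FPKM in mock wild type, and to 3.4 and 12.7 FPKM in the mutant pair. Hsp68, a related chaperone gene, was at 7.11 and 12.8 FPKM in irradiated and mock wild type (-0.77), while the cytosolic chaperone gene Hsp83 was at 219 and 241 FPKM (-0.13).

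Cuticle genes lay mostly below 0 in wild-type embryos. Most of them encode structural proteins of the exoskeleton, which the embryo lays down later than the labelled age. The list used also holds genes of enzymes, such as ple, Ddc and kkv. Of 29 genes of cuticle and epidermal differentiation 2 were lower, beside 0.892% of all genes counted, and none was higher. Of the 29 genes 24 lay below 0, and the median was -0.42. Among the counted genes of the Cpr family, named for a chitin-binding consensus, 35 of 44 lay below 0, and among the Tweedle (Twdl) genes 17 of 20, beside 45.8% of all genes counted. The wild-type medians were -0.39 for the Cpr genes and -0.48 for the Twdl genes, and the mutant medians 0.04 and -0.14. The Cpr genes summed to 714 FPKM in irradiated and 1098 FPKM in mock wild type, and to 1179 and 1186 FPKM in the mutant pair. For Lcp65Ag1 the levels were 31.9 FPKM in irradiated and 70.5 FPKM in mock wild type, against 29.9 and 30.8 FPKM in the mutant pair. Cpr64Ab was at 21.2 and 50.7 FPKM in irradiated and mock wild type, against 14.6 and 37.7 FPKM in the mutant pair. The 2 genes thus gave unlike pictures in the mutant, with a difference of -0.04 for Lcp65Ag1 and of -1.31 for Cpr64Ab. Gasp, a chitin-binding gene of the trachea and cuticle, was at 92.9 and 131 FPKM in irradiated and mock wild type (-0.49). Genes of differentiated muscle were also below 0 in 14 of 16 cases, with a median of -0.20. For example, the actin gene Act87E was at 173 FPKM in irradiated and 233 FPKM in mock embryos (-0.43). The part of embryo age in these differences was not tested.

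Regulators of the body plan showed small differences, with none called, beside 1.32% higher and 0.892% lower over all genes counted. All 10 genes of the Hox list were below 0, from -0.10 for abd-A to -0.42 for Ubx (34.1 FPKM in irradiated and 46.0 FPKM in mock embryos), and their median was -0.25. In mutant embryos the median was -0.20. Of 33 patterning genes 25 were below 0, with a median of -0.11. The homeobox genes of the visceral and cardiac mesoderm, bap and tin, were at 29.3 and 41.5 FPKM and at 42.0 and 56.9 FPKM in irradiated and mock wild type. Against that trend, rho (rhomboid), which releases ligands of the EGF receptor, was at 27.1 FPKM in irradiated and 16.6 FPKM in mock embryos (0.67). Notch target genes of the Enhancer of split and Bearded families had a median of -0.20, with E(spl)m8-HLH at 131 and 199 FPKM (-0.60), and the Notch ligand gene Dl (Delta) was at 107 and 153 FPKM (-0.51). In mutant embryos Dl was at 91.4 and 118 FPKM (-0.37).

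Early and maternal transcripts did not share a direction. Of 20 early zygotic genes 13 were below 0, with a median of -0.15, and the exception past 2-fold was CG13713, at 7.91 FPKM in irradiated and 1.59 FPKM in mock wild type, against 0.63 and 1.72 FPKM in the mutant pair. Maternal transcripts, which the mother loads into the egg and the embryo then clears, had a median of 0.19 with none of 24 called. The clearance factor gene smg (smaug) was at 79.1 FPKM in irradiated and 52.5 FPKM in mock wild type (0.58), against 140.4 and 110.3 FPKM in the mutant pair (0.35), and bcd (bicoid) at 10.2 and 7.91 FPKM in irradiated and mock wild type (0.33). Genes of the piRNA pathway, largely maternal at this age, had a median of 0.15 with none of 24 called. Of all genes counted, 1.32% were higher and 0.892% lower.

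**Figure D5:**
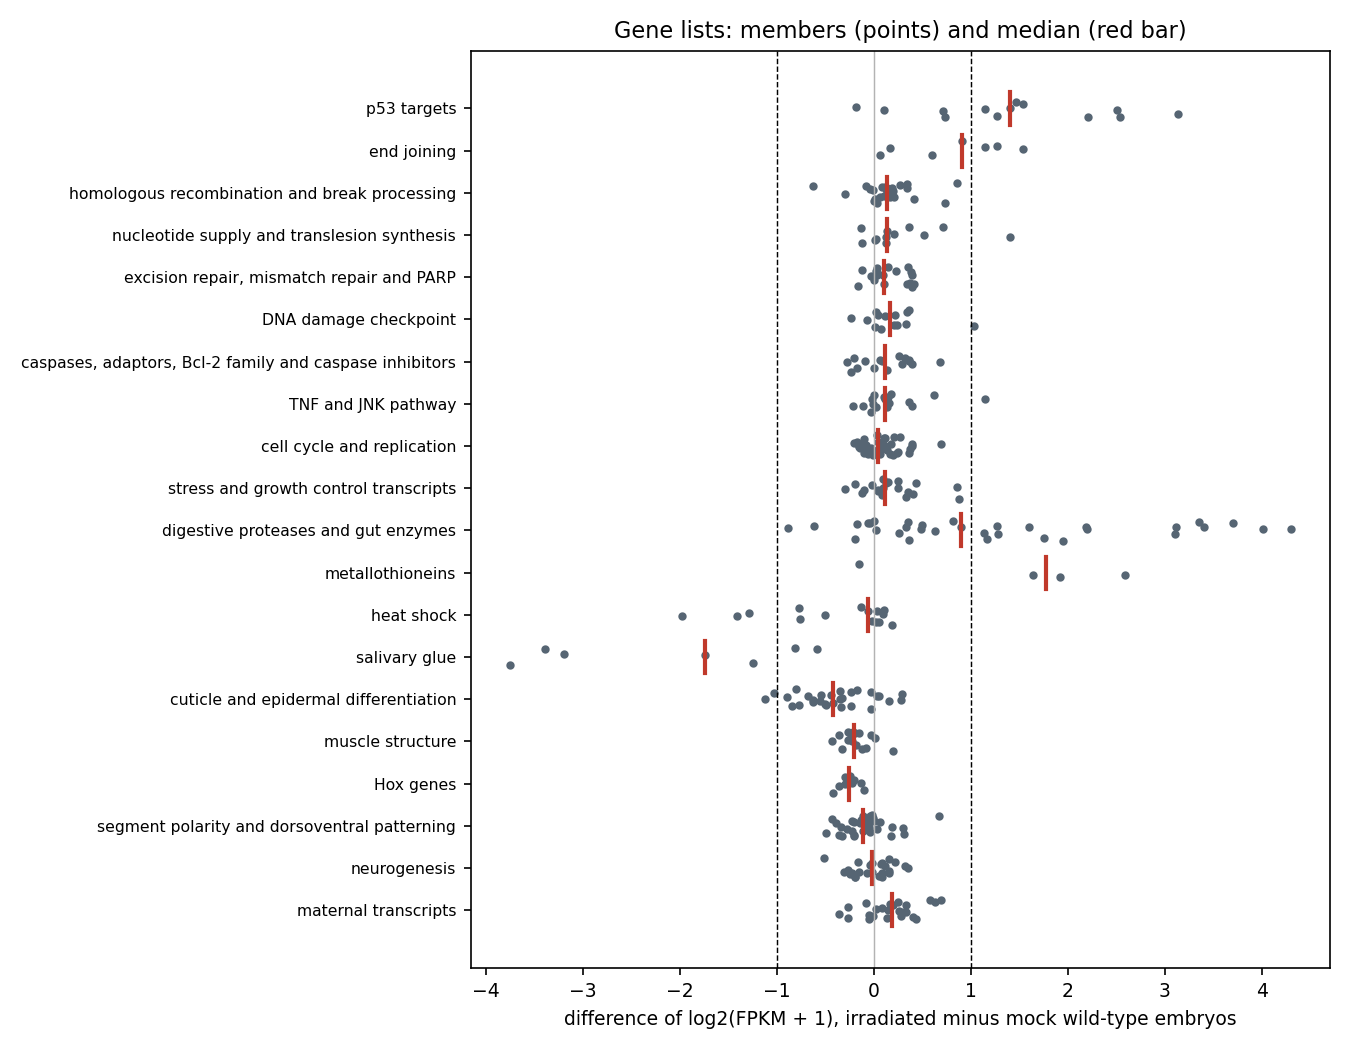
Differences of log2(FPKM + 1), irradiated minus mock wild-type embryos, for the counted members of 20 gene lists (points, jittered vertically), with the median of each list as a red bar and dashed lines at 2-fold. The p53 target (1.41), end joining (0.91), metallothionein (1.78) and digestive (0.90) medians lie well above 0, and the glue (-1.74) and cuticle (-0.42) medians lie below 0. Of the 4 metallothionein genes 3, and of the 33 digestive genes 22, were under 1 FPKM in mock wild type. Of the 7 glue genes 5 were under 1 FPKM in irradiated wild type.

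Abundant housekeeping transcripts lay slightly below 0 in wild type. Of 91 cytosolic ribosomal protein genes 86 lay below 0, with a median of -0.09, while the median in mutant embryos was 0.09. Of 30 proteasome genes 24 lay below 0, with a median of -0.06 in wild type and 0.13 in the mutant. Differences also followed gene size. Among genes at 5 FPKM or more in mock wild type, the 1505 with the shortest annotated spans had a median of -0.085 and the 1505 with the longest a median of 0.068, and in mutant embryos the order was the other way round, with 0.103 for the shortest and -0.057 for the longest. Shifts of this size lie far inside the 2-fold line and were not tested.

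Some called genes lie close together in the genome. Within 20 kb of one another, 37 of the 114 higher genes formed 17 runs, small RNA genes left out. Of the 54 lower genes, 12 formed 5 runs. The share of all genes counted that lie so close together was not counted, so these counts have nothing to be set against. A run of 3 higher genes on 3L, 3L:4677832-4698058, held CG34266, CG15876 and CG13713, and the middle gene CG15876 was at 15.98 FPKM in irradiated and 5.19 FPKM in mock wild type, against 2.02 and 1.71 FPKM in the mutant pair. All 3 genes were highest in the irradiated wild-type library, through which alone CG34266 was counted. Most of the other runs were tandem families, such as the Jonah genes on 2L, 3L and 3R and the trypsin genes at 2R:11344260-11347395. Near-identical copies in such families can share fragments, so a run can overstate the number of genes that moved.

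At the threshold the genes just inside on the higher side were CG2909 (1.002), CG4563 (1.005) and CR44120 (1.014), and those just outside were Cyp4p3 (0.996), Mmp2 (0.996) and CG2065 (0.984). On the lower side CG30101 (-1.012), CG14327 (-1.015) and CG34268 (-1.025) were just inside, and TwdlD (-0.995), CG15649 (-0.991) and CR44929 (-0.99) just outside. Mmp2, a matrix metalloproteinase gene, was at 9.69 FPKM in irradiated and 4.36 FPKM in mock wild type, against 4.90 and 4.90 FPKM in the mutant pair.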

How the data were processed

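Per the submitters' processing notes, the tools used were TopHat2 and Cuffdiff for RNA, Bowtie2 and MACS2 for chromatin, and cutadapt, Picard and SAMtools, with the dm6 build. Tool versions and the annotation the authors used are not stated in those notes. The embryo table gives 1 deposited FPKM value for each gene in each group. It also gives log2 columns that the authors computed after adding 1 FPKM, and from these the differences here departed by at most 0.0162. The deposited peak list gives for each peak a score, the −log10 of a p-value and of a q-value, and a fold (the ratio of wild type to the p53 mutant), all by the authors. Per the labels the chromatin came from embryos with no stated radiation treatment, and p53 mutant chromatin served as background.

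Genes at 1 FPKM or more in any of the 4 embryo groups entered, and log2(FPKM + 1) differences were counted at 2-fold. FPKM are scaled to each library's total, so a change in all transcripts together is not seen. Depth came from FPKM steps of genes with 1 transcript of 800 to 3000 bp, with lengths reduced by 150 bp. Over reductions of 0 to 300 bp it ranged from 18.5 to 24.2 M fragments for irradiated and from 16.56 to 22.02 M for mock wild type. Exact binomial intervals of ratios used these depths. The calculation was tested on simulated data. Gene spans came from Ensembl annotation of the same build, matched by symbol or older symbol for all but 280 of 16510 genes.

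The members, the 36 gene lists and the rule for named genes were chosen with earlier results of these data known. The rule took p53, the p53 targets, the 15 largest rises and falls at 5 FPKM or more, up to 6 called members per list, called genes within 5 kb of a peak and the genes at the threshold. The rule used the spans of the table, which often join several genes, and the small RNA genes it named are not described. Other genes named, such as CG6272, CG12194, CG1504, CG15236, Rtnl1, CG9836 and the list members below 2-fold, were chosen after their values were seen. Of the lists, 9 symbols were not found. Lists not described above gave no called gene, beside 1.32% higher and 0.892% lower over all genes counted. They were ecdysone response (median 0.09), glycolysis (0.02), haemocytes and fat body (-0.02), female tract (0.14) and male tract (0.37). The rest were neurogenesis (-0.02), histones (-0.11) and serine hydrolases and lipases (0.01). Of 6 ubiquitin genes (median 0.32) Corp was called higher, beside 1.32% of all genes counted. Python 3.11, numpy 2.4.6, pandas 2.3.3, scipy 1.17.1 and matplotlib 3.10.9 were used.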

Additional observations from a re-analysis of the deposited data

Results flagged for a closer look

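For 7 named genes past 2-fold in wild-type embryos, the difference in p53 mutant embryos had the other sign by more than counting error. With 1 library per group the gap between the strains was not tested. Among higher genes it was 2.82 for rpr (2.54 in wild type and -0.28 in the mutant), 2.42 for Corp (2.21 and -0.21), 1.69 for W (1.47 and -0.23) and 1.39 for p53 (1.04 and -0.34). The p53 value of the mutant rests on levels under 1 FPKM. Among lower genes it was -3.19 for CG43346 (-2.27 and 0.91), -1.96 for the cuticle gene Cpr67Fb (-1.32 and 0.64) and -1.65 for CG16713 (-1.04 and 0.62).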

How the results depend on the processing

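The counts of 141 higher and 95 lower genes depended on the treatment of low values. They were 273 and 213 with a pseudocount of 0.1 FPKM, 54 and 42 with a pseudocount of 5 FPKM, and 80 and 62 among genes at 5 FPKM or more in either wild-type group. Without small RNA genes the lower genes numbered 54. They were 336 and 336 at a 1.5-fold threshold and 45 and 38 at a 4-fold threshold. An alternative added after seeing the data, 5 FPKM or more in mock wild type without small RNA genes, gave 28 and 26. Of the p53 targets 9 were higher in each setting at the 2-fold line, 11 at 1.5-fold and 4 at 4-fold. Centring on the median over genes at 5 FPKM or more in both libraries, a shift of 0.017, left 137 higher and 101 lower genes. Of 566 values of named genes under alternatives 67 moved, of 287 list medians 26 moved by 0.1 or more, and none turned its direction from past 2-fold. A named gene moved where its shift exceeded the mean reach of its counting interval to either side, on a log2 scale. Where it had no finite interval, all but the smallest shifts counted as moved. No paired analysis was possible because each group had 1 library, and for the same reason leaving out a library was not possible. Small list shifts such as those of ribosomal protein, proteasome and Hox genes have no replicate spread to be set against.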

Other observations

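Besides IscU, the cysteine desulphurase gene of iron-sulphur cluster assembly, Nfs1 (listed as CG12264), was close to the 2-fold line. It stood at 73.6 FPKM in irradiated and 37.5 FPKM in mock wild type, a difference of 0.96, against 36.9 and 32.9 FPKM in the mutant pair. Nfs1, at 2L:11999654-12001244, lies close to the chimaeric gene Qtzl, at 2L:11995740-11996723. A sharing of fragments between Nfs1 and Qtzl was not tested. Of 12 genes of cluster assembly, chosen after these values were seen, 1 was called, beside 1.32% of all genes counted, and 3 were higher by 1.5-fold, beside 3.15%. The third was CIAPIN1, at 77.5 FPKM in irradiated and 51.2 FPKM in mock wild type. The scaffold and the desulphurase work together in the mitochondrion, and the frataxin gene fh stood at 10.3 and 11.5 FPKM in irradiated and mock wild type. The list median was 0.16 in wild type and 0.12 in the mutant.

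Lst8, a subunit of the TOR complexes, stood just under the line as well, at 65.9 FPKM in irradiated and 33.0 FPKM in mock wild type, against 54.4 and 48.5 FPKM in the mutant pair. The mock wild-type library was the low one of the 4.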
